A study of Mus musculus with 9 samples.

Results

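The genes described here encode the proteins of the large subunit of the cytosolic ribosome. Members were chosen by symbol and selected on their summed UMIs: every gene whose name begins with Rpl and a digit, or is Rplp0, Rplp1 or Rplp2, has no hyphen, and reached at least 1000 unique molecular identifiers (UMIs, the tags that count captured RNA molecules) over the 9 matrices. No difference between groups or cell types entered this choice, but it was made with earlier results of these data known. Of 32427 genes, 55 symbols began this way. The hyphenated copies Rpl10-ps3 and Rpl9-ps6 were left out by the hyphen and Rpl39l, with 16 UMIs, by the minimum, which left 52 members. Rpl27rt, with 2853 UMIs, was the member nearest to the minimum. Of the 52, 46 are the core proteins and 6 are paralogs or retrogene copies (Rpl3l, Rpl7l1, Rpl22l1, Rpl36al, Rpl37rt and Rpl27rt). Together the members took 4.62% of all 775108937 UMIs, against 3.56% for 38 genes taken by small subunit symbols, a list that also holds paralogs, retrogene copies and Rps19bp1, which encodes a protein that binds Rps19.

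The data were droplet-based scRNA-seq libraries of kidney tissue from 9 male C57BL/6 mice, 3 per group, aged 6 weeks at the start. Control mice were injected with saline. AKI-CKD mice were given cisplatin, a platinum drug toxic to the proximal tubule, at 8 mg/kg in 4 weekly intraperitoneal injections, a model of the transition from acute kidney injury to chronic kidney disease. AKI-CKD + EGT mice received the same cisplatin with the antioxidant ergothioneine (EGT) at 0.5 mg/mL in drinking water from 3 days before the cisplatin, and the study ran for 8 weeks. No group received EGT without cisplatin, so the effect of EGT on the healthy kidney was not part of the design. The labels give each library as 1 sample of its group and the methods call the 3 of a group biological replicates, so each is called a mouse below.

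Ribosomes are built in the nucleolus from ribosomal RNA and about equal amounts of each of the ribosomal proteins, and the large subunit holds the site where peptide bonds form and the tunnel through which the new chain leaves. The mRNAs of these proteins begin with a short run of pyrimidines, the 5′ terminal oligopyrimidine tract, through which their translation follows nutrient and mTOR signalling. In the kidney the proximal tubule makes up most cells, and lymphocytes are known for abundant ribosomal protein mRNA.

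Promoters are shown for 8 members at the ends of the ranges of fold change between groups or cell types, or with a pattern of their own. RefSeq windows on GRCm38.p6, which is another build than the GRCm39 that the labels name for the reads, were matched for 39 of 52 members by symbol, or 75%, so the counts of motifs cannot stand for the whole set. Each window runs from 250 bases before to 50 bases after the start, of which 45 bases before and 15 from the start are printed 5′ to 3′ on the gene's strand. Capitals mark CTCTTTC, a pyrimidine run searched on the gene strand.
Rpl37a, chr1:72711215-72711274, + strand: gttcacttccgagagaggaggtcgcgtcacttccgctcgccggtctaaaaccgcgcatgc
Rpl35, chr2:39005117-39005176, - strand: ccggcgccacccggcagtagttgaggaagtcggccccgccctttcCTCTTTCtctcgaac
Rpl41, chr10:128549154-128549213, - strand: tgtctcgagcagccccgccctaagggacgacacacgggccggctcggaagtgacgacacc
Rpl28, chr7:4792920-4792979, + strand: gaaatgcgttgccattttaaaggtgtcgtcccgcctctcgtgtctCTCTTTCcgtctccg
Rpl12, chr2:32961667-32961726, + strand: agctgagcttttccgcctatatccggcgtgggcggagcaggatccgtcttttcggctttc
Rplp0, chr5:115559422-115559481, + strand: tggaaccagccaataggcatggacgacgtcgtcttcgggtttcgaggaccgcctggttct
Rpl36al, chr12:69184053-69184112, - strand: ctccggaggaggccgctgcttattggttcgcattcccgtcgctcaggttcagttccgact
Rpl3l, chr17:24727781-24727840, + strand: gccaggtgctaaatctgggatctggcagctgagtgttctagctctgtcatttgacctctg

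Rpl35, among the members highest in AKI-CKD, and Rpl28, lowest of the well measured members in CD-PC cells, have the run exactly at the annotated start. Rpl37a, Rpl41, Rpl12, Rplp0, Rpl36al and Rpl3l have no exact match in the printed stretch. Over the whole windows, CTCTTTC occurred in 10 of the 39 members and in 3.99% of 32851 windows of all genes. CCGGAAG, the core of an ETS factor site, searched on both strands, occurred in 14 of the 39 and in 8.86% of all windows, Rpl35 and Rpl41 among them. Both motifs were chosen after the sequences were seen, and a match describes letters in a window.

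Of 216680 cell barcodes, 196925 passed the limits stated in the methods (no fewer than 1000 UMIs and 500 genes, and mitochondrially encoded UMIs up to 15%), which is more cells than the study states it kept. The kept cells of a mouse held 64225484 to 97584966 UMIs, with a median of 2534 to 2966 UMIs per cell. AKI-CKD + EGT mouse 3 kept 17255 of 23876 barcodes, the smallest share. Cell names are running numbers, so 62337 of 98290 names occur in more than 1 library without marking shared cells. Cells were clustered without any ribosomal protein gene and named from marker lists as proximal tubule (PT, 160470 cells), distal convoluted tubule (DCT), loop of Henle (LOH), collecting duct principal (CD-PC) and intercalated (CD-IC) cells, endothelial cells, fibroblasts and mural cells, macrophages, T cells, B cells and cycling cells. These populations were rebuilt here and may differ from the study's.

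The large subunit genes took a larger share of UMIs in AKI-CKD kidneys than in Control kidneys. In all kept cells the share was 4.06%, 4.50% and 4.20% in Control mice 1, 2 and 3 (4.25% ± 0.23, SD, n = 3). It was 5.09%, 5.76% and 5.23% in the AKI-CKD mice (5.36% ± 0.35, SD, n = 3), all above the highest Control mouse. In the AKI-CKD + EGT mice it was 4.89%, 4.50% and 4.21% (4.53% ± 0.34, SD, n = 3), below every AKI-CKD mouse and overlapping the Control mice. The same order held within PT cells, with 3.95%, 4.37% and 4.08% in Control, 4.99%, 5.52% and 5.10% in AKI-CKD and 4.74%, 4.32% and 4.11% in AKI-CKD + EGT mice, which again left AKI-CKD above both.

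Other RNA classes varied between mice. Mitochondrially encoded transcripts took 1.55% to 6.08% of UMIs in Control, 1.94% to 3.03% in AKI-CKD and 3.40% to 6.39% in AKI-CKD + EGT mice, so that AKI-CKD + EGT lay above AKI-CKD without overlap and Control overlapped both. The nuclear RNA Malat1 took 0.72% to 0.93%, 0.27% to 0.86% and 0.63% to 1.45%, all overlapping. A share falls when another class takes more of the total. With mitochondrially encoded genes, Malat1 and Neat1 taken out of the total, the large subunit share was 4.36%, 4.74% and 4.30% in Control, 5.30%, 5.94% and 5.35% in AKI-CKD and 5.10%, 4.75% and 4.57% in AKI-CKD + EGT mice, so that AKI-CKD still lay above both other groups without overlap.

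**Figure D1:**
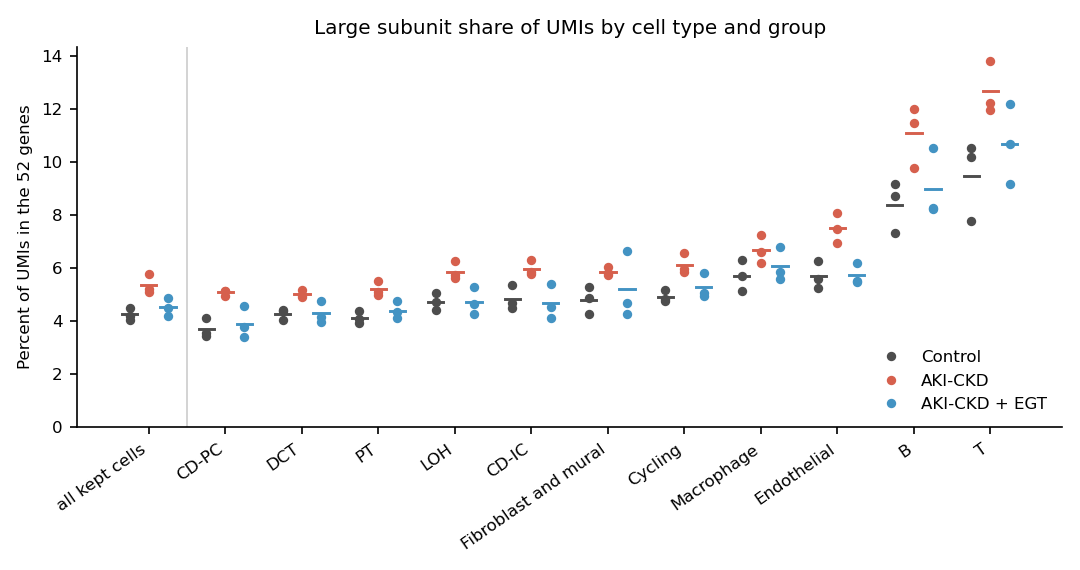
Percent of UMIs in the 52 large subunit genes (y axis) for all kept cells and 11 cell populations (x axis), with 1 point for each mouse and a bar at the mean of each group of 3. AKI-CKD mice lie above the Control mice in every population but macrophages, and T and B cells have the highest shares in all groups.

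Gene by gene, the difference was small, broad and short of the test's threshold. Raw UMIs were summed per mouse and fitted with edgeR's quasi-likelihood test over all genes, with TMM-scaled library sizes, and a gene was called at a Benjamini-Hochberg adjusted p under 0.05. Between AKI-CKD and Control, none of the 52 members was called in all kept cells (smallest adjusted p = 0.467), where 0.0149% of all genes tested were called higher and 0.00496% lower. The log2 fold change was above 0 for 50 members, against 50.2% of all genes, with a median of 0.35 and a range of -0.19 to 0.68. For 39 members all 3 AKI-CKD mice lay above all 3 Control mice, against 8.71% of all genes, and 19 members had an unadjusted p under 0.05, against 3.67%. DESeq2 called 1 member higher, or 1.92%, against 0.233% of all genes.

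Between AKI-CKD + EGT and AKI-CKD, none of the 52 was called in all kept cells (smallest adjusted p = 0.318), where 0.00496% of all genes tested were called higher and 0% lower. All 52 log2 fold changes lay below 0, against 51.2% of all genes, with a median of -0.44. For 34 members the mice of the groups did not overlap, against 9.73% of all genes, and 30 had an unadjusted p under 0.05, against 5.88%. DESeq2 called 7 members lower, or 13.5%, against 0.528% of all genes. The AKI-CKD mice enter both comparisons. Between AKI-CKD + EGT and Control the members stood near 0, with a median of -0.08 on the log2 scale and 11 above 0, against 49.5% of all genes. None lay apart without overlap, where 7.08% of all genes did so on the higher and 6.25% on the lower side. EdgeR called none, where 0.00496% of all genes were called higher and 0% lower, and no member had an unadjusted p under 0.05, against 3.75% and 4.18%. The median ran from -0.22 without AKI-CKD + EGT mouse 1 to 0.046 without AKI-CKD + EGT mouse 3, with -0.18 without Control mouse 1 and -0.038 without Control mouse 2, and was +0.08 with plain totals in place of TMM, which put the median of all genes at 0.17.

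The scaling sets the size of these differences. With plain total UMIs in place of TMM, the median over all genes tested moved to 0.22 for AKI-CKD + EGT against AKI-CKD in all kept cells, and the median member log2 fold change became -0.22 with 3 members above 0. For AKI-CKD against Control it became 0.29 with 49 members above 0.

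**Figure D2:**
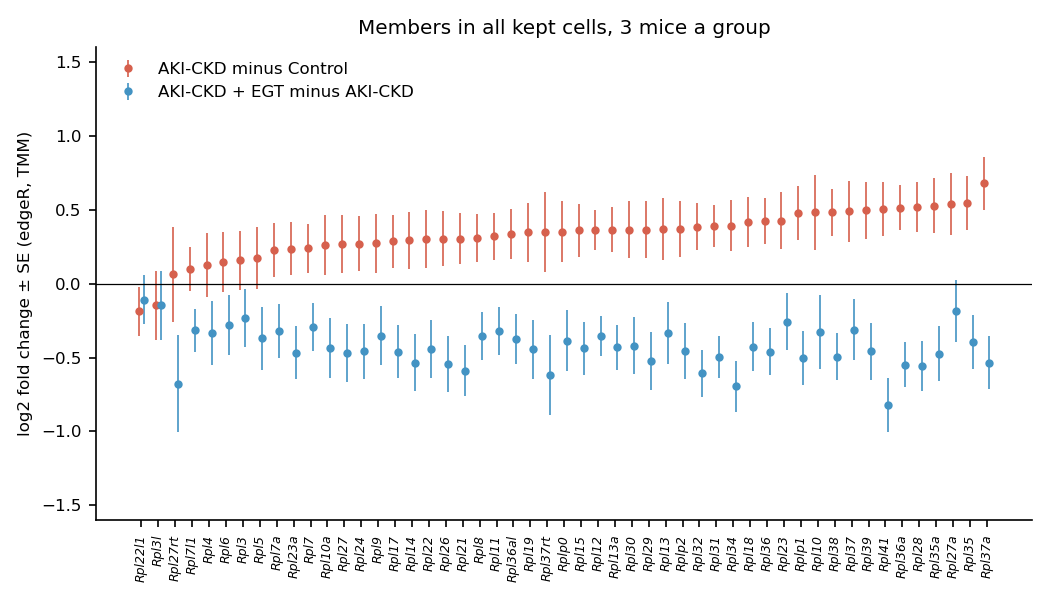
Log2 fold change of the members shown (x axis, ordered by the AKI-CKD difference) in all kept cells, from edgeR with TMM, for AKI-CKD minus Control and AKI-CKD + EGT minus AKI-CKD. Bars are standard errors from 3 mice per group. The AKI-CKD differences reach 0.68 at Rpl37a, and the lowest AKI-CKD + EGT difference is -0.82 at Rpl41.

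The P stalk is the flexible arm of Rplp0, Rplp1 and Rplp2 that recruits elongation factors, standing on a base that Rpl12 shares. Rplp0 was at 686, 829 and 888 CPM (UMIs scaled to the same library total, with TMM factors) in Control mice, 980, 954 and 1129 in AKI-CKD and 1013, 737 and 593 in AKI-CKD + EGT mice. AKI-CKD lay above Control without overlap, while 1 AKI-CKD + EGT mouse reached the AKI-CKD values. Rpl12 was at 488, 448 and 394 CPM in Control, 538, 587 and 585 in AKI-CKD and 452, 439 and 445 in AKI-CKD + EGT mice, and in both comparisons the groups did not overlap. For the 4 stalk genes the log2 fold change had a median of 0.36 between AKI-CKD and Control and of -0.42 between AKI-CKD + EGT and AKI-CKD, with 3 of 4 without overlap in each, where 8.71% and 9.73% of all genes were.

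Rpl5 and Rpl11 bind the 5S ribosomal RNA and, outside the ribosome, can bind Mdm2, the ligase that degrades p53. Rpl5 was at 428, 584 and 626 CPM in Control mice and 551, 569 and 726 in AKI-CKD mice, which overlapped. Rpl11 was at 907, 975 and 903 CPM in Control and 1090, 1183 and 1202 in AKI-CKD mice, which did not. Of 10 p53 target genes, which were listed beside the ribosomal proteins, 2 were called higher in AKI-CKD than in Control, Phlda3 at a log2 fold change of 2.81 (edgeR adjusted p = 0.0186) and Eda2r at 3.30 (edgeR adjusted p = 0.0359), the latter from 0.178, 0.066 and 0.081 CPM in Control and 0.862, 1.04 and 1.32 in AKI-CKD mice, and the median of the list was 0.74. These calls come from the fit over all kept cells, and the share of all genes called higher in it is given above with the members. Whether the p53 targets and the ribosomal proteins are linked was not tested.

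Rpl3, Rpl4, Rpl8, Rpl10, Rpl10a and Rpl29 lie around the peptidyl transferase centre and the tRNA sites. All 6 were above 0 in AKI-CKD against Control with a median of 0.29, and 3 did not overlap (8.71% of all genes). With EGT the median was -0.34 against AKI-CKD, and 3 did not overlap (9.73% of all genes). Rpl3 was at 287, 337 and 398 CPM in Control and 358, 360 and 421 in AKI-CKD mice, and Rpl10, among the last proteins to join the subunit before it can translate, was at 698, 1323 and 1126 and at 1405, 1421 and 1566. Rpl3 overlapped between the groups and Rpl10 did not. Around the exit of the tunnel, Rpl17, Rpl19, Rpl23a, Rpl26, Rpl31 and Rpl35 had a median of 0.33, with 5 of 6 without overlap, and of -0.46 between AKI-CKD + EGT and AKI-CKD, with 6 of 6, against the same shares of all genes. Rpl19 was at 878, 1133 and 1130 CPM in Control, 1295, 1279 and 1423 in AKI-CKD and 1230, 950 and 757 in AKI-CKD + EGT mice.

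The members at the ends of the range were Rpl37a and Rpl41. Rpl37a, a small zinc finger protein of the subunit, was at 1395, 1533 and 1422 CPM in Control, 1971, 2603 and 2388 in AKI-CKD and 1811, 1658 and 1333 in AKI-CKD + EGT mice. AKI-CKD stood apart from both other groups, with a log2 fold change of 0.68 ± 0.18 (SE) over Control and an adjusted p of 0.467 by edgeR; it was the member that DESeq2 called (0.67, DESeq2 adjusted p = 0.0278). Rpl35 and Rpl27a followed at 0.55 and 0.54. Rpl41, the smallest ribosomal protein, was at 2750, 3730 and 3367 CPM in Control, 4266, 4720 and 4980 in AKI-CKD and 2900, 2580 and 2434 in AKI-CKD + EGT mice. Its log2 fold change of -0.82 ± 0.18 (SE) between AKI-CKD + EGT and AKI-CKD had an adjusted p of 0.318 by edgeR. DESeq2 called Rpl41 (-0.83, DESeq2 adjusted p = 0.000726) and Rpl34 (-0.71, DESeq2 adjusted p = 0.0129). Among members with an average log2 CPM of at least 4, Rpl34 followed at -0.69 and the retrogene copy Rpl37rt at -0.62, and Rpl27rt, below that limit at 2.75 to 4.39 CPM on average in the groups, was at -0.68 ± 0.33 (SE). Rpl34 was lowest in AKI-CKD + EGT mouse 2, with 74235, 60795 and 76597 UMIs in these mice, of which mouse 2 had the most kept UMIs. In endothelial cells it was at 1621, 970 and 1739 CPM there, again lowest in mouse 2. In AKI-CKD + EGT against Control, with the same limit on level, Rpl27a stood highest at 0.35, Rpl37 at 0.18 and Rpl23 at 0.17, and Rpl41 stood lowest at -0.32, Rpl34 at -0.30 and Rpl22l1 at -0.30, while Rpl27rt was at -0.61 ± 0.33 (SE). Rpl27a had 51963, 41255 and 32744 UMIs in AKI-CKD + EGT mice, among 67254186, 75649429 and 64225484 kept UMIs. Mouse 1 thus stood highest, and the value of 0.35 leans on it.

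The values of most paralogs overlapped between AKI-CKD and Control. Rpl22l1, which can take the place of Rpl22, had a log2 fold change of -0.19 ± 0.16 (SE) in AKI-CKD against Control, against 0.30 for Rpl22. Rpl22l1 was at 131, 172 and 163 CPM in Control, 116, 141 and 151 in AKI-CKD and 135, 138 and 106 in AKI-CKD + EGT mice, all overlapping. Rpl7l1, a relative of Rpl7 that takes part in ribosome assembly, was at 50.3, 60.9 and 61.0 CPM in Control and 60.6, 57.7 and 65.9 in AKI-CKD mice, also overlapping. Rpl3l, the form of Rpl3 known from heart and skeletal muscle, was at 4.63, 5.82 and 6.43 CPM in Control and 5.76, 3.31 and 6.16 in AKI-CKD mice, also overlapping, and its log2 fold change of -0.15 became 0.087 without AKI-CKD mouse 2. The 5 listed paralogs and near relatives that were tested had a median of 0.10, and the difference between the paralogs and the core was not tested.

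The difference varied with the length of the coding sequence. Of the 52 members, 50 had a coding length in the mouse GENCODE annotation of GRCm38 (the longest annotated coding sequence of a gene); Rpl27rt and Rpl37rt had none. Across these 50 genes, which share libraries and are no independent replicates, Spearman's rho between length and log2 fold change was -0.67 for AKI-CKD minus Control and 0.52 for AKI-CKD + EGT minus AKI-CKD in all kept cells, -0.68 and 0.52 in PT cells and -0.34 and 0.33 in T cells, where 49 of them were tested. Among 5624 other genes at an average of at least 4 on the log2 CPM scale, rho was -0.448 and 0.448, so that short genes as a class stood higher in AKI-CKD. Other genes under 300 bases stood at a median of 0.26 on the log2 scale for AKI-CKD minus Control, against 0.49 for the 5 members of that length. At 300 to 450 bases the medians were 0.20 and 0.39, at 450 to 600 bases 0.14 and 0.32, at 600 to 900 bases 0.078 and 0.28 and at 900 to 1300 bases 0.044 and 0.14. Of the 50 members, 48 lay above the median of other genes in their own length range and 42 above the upper quartile. For AKI-CKD + EGT minus AKI-CKD, 45 lay below the median and 40 below the lower quartile. Other genes stood below 0 there too, at medians of -0.33, -0.31, -0.24, -0.19 and -0.15 from the shortest to the longest range. The members of these ranges stood at -0.50, -0.46, -0.44, -0.34 and -0.28. Over all 5624 other genes the median was -0.13, against -0.44 for the 50 members. How transcript length, RNA quality or library preparation bear on these values was not tested.

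**Figure D3:**
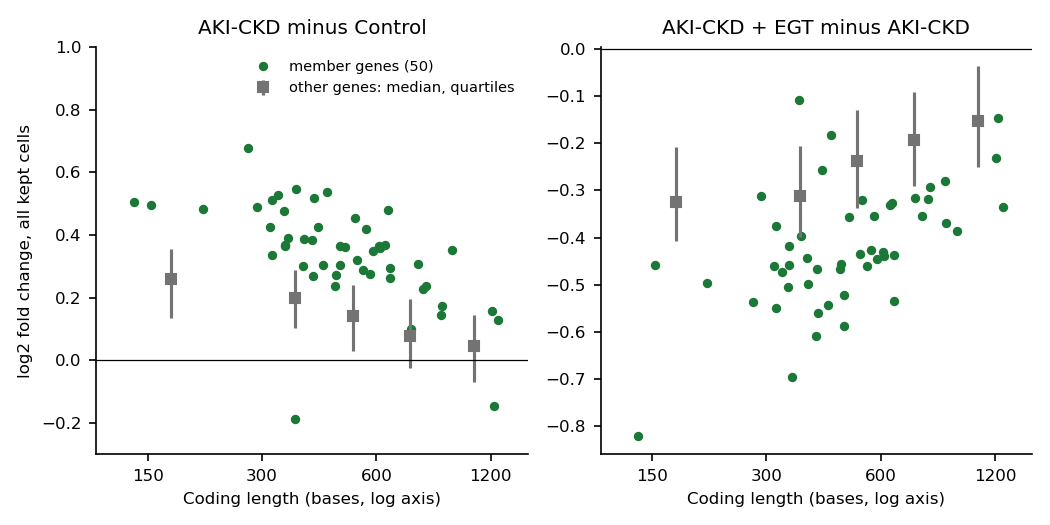
Log2 fold change in all kept cells (y axis) against coding length in bases (log x axis) for 50 members (green points), with the median and quartiles of other genes in 5 length ranges (grey squares and bars). Shorter genes stand higher in AKI-CKD minus Control, and 48 of 50 members lie above the other genes' median of their range.

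The median member lay above 0 in AKI-CKD against Control in each cell population. In PT cells, 50 of 52 members were above 0 (48.2% of all genes) with a median of 0.37, and 39 did not overlap, against 11.3% of all genes. In DCT cells 34 of 52 did not overlap (8.62% of all genes), in LOH cells 32 of 51 (8.46%) and in endothelial cells 40 of 50 (8.05%). CD-PC cells had the most members without overlap, 48 of 50 against 12% of all genes, and the highest median, 0.53. Macrophages had the fewest, 14 of 50 against 6.27%, and the lowest median, 0.20. T cells had 39 of 50 (9.19%) at a median of 0.49, B cells 17 of 49 (6.26%) at 0.41, cycling cells 32 of 50 (7.18%), CD-IC cells 39 of 50 (9.44%) and fibroblasts and mural cells 24 of 50 (5.8%). Whether one population moved more than another was not called from these counts, since the numbers of cells behind them differ, from 580 fibroblasts and mural cells to 160470 PT cells. Depth per cell differed too: median UMIs per CD-PC cell were 3048.5, 3560 and 3998 in AKI-CKD and 2643, 2793 and 2872 in Control mice. Its part in the counts was not tested.

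Between AKI-CKD + EGT and AKI-CKD, medians ran from -0.44 to -0.18 over the 12 populations, all kept cells included. They depended on the AKI-CKD + EGT mice: without mouse 3 the median was -0.29 in all kept cells, -0.29 in PT cells, -0.071 in macrophages and -0.098 in fibroblasts and mural cells, without mouse 1 it was -0.58, -0.57, -0.30 and -0.41, and without AKI-CKD mouse 2 it was -0.10 in macrophages. Members without overlap on the lower side numbered 34 of 52 in PT cells (11.1% of all genes), 41 of 50 in endothelial cells (7.44%) and 8 of 50 in macrophages (7.07%). The share of UMIs was higher in every AKI-CKD mouse than in every Control mouse in all populations but macrophages, where Control mice had 5.14%, 5.71% and 6.31% and AKI-CKD mice 6.60%, 7.25% and 6.18%. By the median share over cells B cells overlapped too, with AKI-CKD mouse 3 at 10.7% against 12.6% and 11.1% in mice 2 and 3 of Control. AKI-CKD + EGT mice lay below AKI-CKD mice without overlap in PT, DCT, LOH, endothelial, CD-PC, CD-IC and cycling cells, and overlapped them in macrophages, T cells, B cells, and fibroblasts and mural cells.

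Intercalated cells of the collecting duct, which secrete acid or bicarbonate, held the only members that edgeR called between groups with the settings used here. In CD-IC cells Rpl41 was at 3628, 3762 and 4247 CPM in Control, 5157, 5709 and 5155 in AKI-CKD and 3486, 2874 and 2999 in AKI-CKD + EGT mice, which gives a log2 fold change of -0.78 between the cisplatin groups with and without EGT (edgeR adjusted p = 0.0205). Rpl34 was at 1123, 1298 and 1281 CPM in Control, 1489, 1805 and 1567 in AKI-CKD and 1081, 662 and 1183 in AKI-CKD + EGT mice, a log2 fold change of -0.73 (edgeR adjusted p = 0.0444). These are 2 of 50 members tested, where 1.2% of all genes were called lower. With the replicate number as a block both missed the threshold at -0.78 and -0.75 (edgeR adjusted p = 0.0595 and 0.0872), and with the 6 mice compared alone Rpl34 did at -0.72 (edgeR adjusted p = 0.0785). In the other 10 populations edgeR called none. At an unadjusted p under 0.05 they held 2 to 41 members higher in AKI-CKD than in Control (4% to 82% of those tested, against 1.75% to 7.3% of all genes) and 2 to 37 lower with EGT (4% to 74%, against 2.36% to 6.38%). DESeq2 called at most 24 of 48 members higher, in CD-PC cells (4.93% of all genes), and 20 of 49 lower with EGT, in endothelial cells (2.42%). The CD-IC population is 1613 cells, and the count of called members ran from 0 to 19 when 1 mouse was left out, with 19 without AKI-CKD + EGT mouse 1. Median UMIs per CD-IC cell were 5014, 5054 and 4285 in AKI-CKD and 4065.5, 2697 and 2492 in AKI-CKD + EGT mice, without overlap. They came from 151, 117 and 93 AKI-CKD cells and from 80, 233 and 513 AKI-CKD + EGT cells. How depth per cell or cell number bears on these calls was not tested.

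The list of small subunit genes moved alongside. All 38 were above 0 for AKI-CKD minus Control, with a median of 0.35 on the log2 scale and 32 without overlap (8.71% of all genes), and all lay below 0 for AKI-CKD + EGT minus AKI-CKD, with a median of -0.49 and 28 without overlap (9.73% of all genes). The log2 ratio of large to small subunit UMIs was 0.33, 0.34 and 0.37 in Control, 0.37, 0.40 and 0.35 in AKI-CKD and 0.44, 0.39 and 0.43 in AKI-CKD + EGT mice. AKI-CKD + EGT lay above Control without overlap, with means of 0.42 and 0.35, while AKI-CKD overlapped both. The 18 elongation factor and related 5′ terminal oligopyrimidine mRNAs outside the ribosome had medians of 0.15 and -0.26 in these comparisons, and the 35 ribosome assembly genes tested had medians of 0.072 and -0.18. In either list edgeR called none. At an unadjusted p under 0.05, 1 of the 18 was higher in AKI-CKD over Control (3.67% of all genes) and 4 were lower with EGT (5.88%), and of the 35 assembly genes 1 was lower in AKI-CKD (4.35%) and 2 were lower with EGT, near the share of all genes.

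Between cell types, lymphocytes gave the largest share of their UMIs to the large subunit. The mean share of UMIs over the 9 mice was 10.96% ± 1.82 (SD) in T cells and 9.50% ± 1.59 in B cells, against 4.58% ± 0.54 in PT cells, which is 2.38 and 2.06 times the PT share of the same mouse on average and higher in 9 of 9 mice. Endothelial cells were at 6.32%, macrophages at 6.16%, cycling cells at 5.44%, fibroblasts and mural cells at 5.28% and LOH cells at 5.11%, each higher than PT in 9 of 9 mice. CD-IC cells were at 5.17% and higher in 8 of 9. DCT cells, at 4.53%, were higher than PT in 4 mice and lower in 5. CD-PC cells were lowest at 4.23% and lower than PT in 8 of 9 mice. Endothelial cells and macrophages, and likewise CD-IC and LOH cells, differed by less than their SD over mice. That SD spans mice of all groups and ignores that the types come from the same mice, so it cannot decide their order. Whether the order of these pairs held within each mouse was not tested.

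T and B cells lay above PT cells in each group. T cells lay above B cells in 9 of 9 mice by summed UMIs, but in 5 of 9 by the median share over cells, so their order is not settled. In T cells the share was 7.77%, 10.53% and 10.21% in Control, 12.22%, 13.84% and 11.99% in AKI-CKD and 12.19%, 10.69% and 9.19% in AKI-CKD + EGT mice, and in B cells it was 7.31%, 9.19% and 8.71%, 11.47%, 12.03% and 9.78%, and 10.54%, 8.26% and 8.22%. T cells had a median of 2326 UMIs per cell and B cells 1958, against 2822 in PT cells. RNA freed from PT cells can enter other droplets, and its part in these shares was not tested.

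By gene, 49 of the 52 members were called higher in T cells than in PT cells in edgeR fits with the mouse as a block, where 18.6% of all genes were, and none lower, against 23% of all genes, with a median log2 fold change of 1.16. B cells had 49 higher (11.8% of all genes) at 0.94 and macrophages 47 (14.3%) at 0.43, both with none lower (17.2% of all genes in each), and plain totals in place of TMM gave 49, 49 and 47, against 19.9%, 12.7% and 14.1% of all genes. In CD-PC cells 49 members were called lower than in PT cells, against 34.9% of all genes, and none higher (29.5%), at a median of -0.61. With plain totals 24 were lower and 3 higher, against 18.5% and 46.7% of all genes.

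In the remaining types plain totals moved all genes together, so the members are read against the median of all genes under the same scaling. CD-IC cells had 43 lower (30.6% of all genes) and 1 higher (20.8%), at a median of -0.31 against -0.16 for all genes. With plain totals 1 was lower and 19 higher (16.9% and 36.7% of all genes), at 0.11 against 0.23, so the members lay below the median gene under both scalings, but without the filter on low counts they lay above it, at -0.30 against -0.48. DCT cells, with 32 lower (30.2% of all genes) and 2 higher (29.2%), were at -0.13 against -0.014, and with plain totals, with 10 of each (22.9% and 37.4%), at -0.014 against 0.10. CD-PC cells kept the same order, at -0.61 against -0.079 and at -0.14 against 0.38. Endothelial cells had 25 higher (30.8% of all genes) and 10 lower (35.8%), at 0.11 against -0.087, and with plain totals 47 and 2 (45.2% and 20.9%), at 0.48 against 0.28, above the median gene in both edgeR fits. Without the filter on low counts there were 4 higher and 19 lower (16.7% and 23% of all genes), at -0.12 against -0.44 for all genes. Cycling cells had 12 higher (11% of all genes) and 1 lower (14.3%), at 0.057 against -0.075, and with plain totals 45 and 0 (18.3% and 7.36%), at 0.22 against 0.095. Without the mouse block none was called in cycling cells (9.52% of all genes higher and 9.72% lower), and the median ran from 0.026 to 0.075 when 1 mouse was left out. In LOH cells, with 8 higher (24.4% of all genes) and 9 lower (25.8%), the members lay near the median gene, at -0.0090 against -0.027, and with plain totals, with 37 and 2 (35% and 17.4%), at 0.16 against 0.13. In fibroblasts and mural cells 18 were lower (22.9% of all genes) and 2 higher (19.4%), at -0.15 against -0.13, and with plain totals 1 and 26 (12.6% and 27.8%), at 0.20 against 0.20, or -0.21 against -0.54 without the filter. The TMM median of the latter was -0.28 with 27 lower when mouse 1 of AKI-CKD + EGT was left out, -0.24 when mouse 3 of AKI-CKD was, and -0.27 when mouse 3 of Control was.

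The order of members and median gene also depends on which genes the median runs over. In DESeq2 fits over every gene, 30290 to 30591 of them, the members lay below the median gene in all 10 types, for example at 0.16 against 0.99 in endothelial cells, -0.014 against 0.59 in LOH, 0.12 against 0.94 in cycling and 1.25 against 1.83 in T cells. Over the 13590 to 15301 of these genes that passed the edgeR filter on low counts, a choice made after seeing the data, the DESeq2 median was -0.052, -0.037, -0.032 and -0.068 in those types, and the members lay above it in 6 types and below it in 4, the latter being DCT, CD-PC and CD-IC cells and fibroblasts and mural cells.

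**Figure D4:**
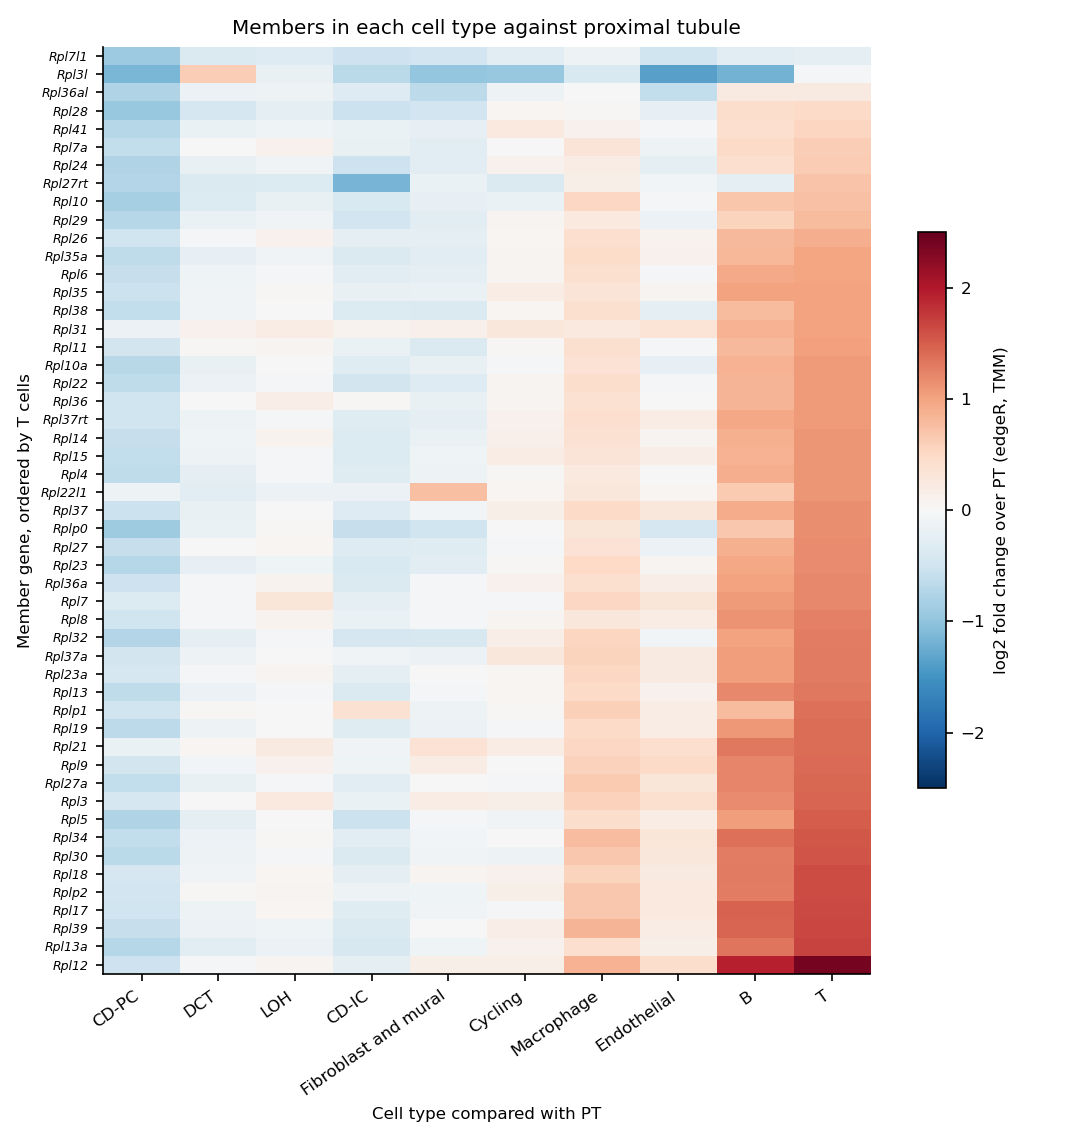
Log2 fold change of the members shown (rows, ordered by T cells) in each of 10 cell types over PT cells (columns), from edgeR with TMM and the mouse as a block. T and B cells are red for nearly all members with Rpl12 strongest at 2.40 and 1.94, CD-PC cells are blue, and Rpl7l1, Rpl3l and Rpl36al depart from the rest; with plain totals the CD-IC and fibroblast and mural columns shift above 0 together with the median of all genes.

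Rpl12, the stalk base protein, had the highest fold change in T and B cells. Its plain CPM (without TMM) was 1784, 2214 and 2288 in T cells of Control mice, 2934, 3156 and 2813 in AKI-CKD and 2487, 2552 and 2261 in AKI-CKD + EGT mice. Its PT values ran from 350 to 529 over the 9 mice, so the lowest T cell value lay well above the highest PT value. Means were 2499 in T cells, 1840 in B cells, 815 in macrophages, 797 in endothelial cells and 452 in PT cells. The log2 fold change over PT was 2.40 ± 0.07 (SE) in T cells (edgeR adjusted p = 6.1e-53), 1.94 ± 0.07 in B cells and 0.87 ± 0.05 in macrophages.

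Single members departed from the rest in other types, given here for members with an average log2 CPM of at least 4. With TMM, Rplp1 was the one member called higher in CD-IC cells than in PT cells, at a log2 fold change of 0.38 (edgeR adjusted p = 7.7e-05, higher in 9 of 9 mice). Its mean was 3360 against 1910 plain CPM, a larger difference, since plain totals moved the CD-IC members up together. Their median went from -0.31 to 0.11, with 19 called higher. Rplp0 of the same stalk was at -0.57 there with TMM, higher in 1 and lower in 8 of 9 mice. Rpl5 was at -0.54 with TMM, which became -0.13 with plain totals (edgeR adjusted p = 0.114). Rpl28 was the lowest member in CD-PC cells at -0.95 and in DCT cells at -0.43. Rpl39 stood beside Rpl12 in macrophages at 0.86, Rpl9 and Rpl12 led in endothelial cells at 0.48 and 0.44, and Rpl7 and Rpl3 in LOH cells at 0.29 and 0.24. Rpl37a and Rpl31 led in cycling cells, both at 0.29, and Rpl10 was at -0.17. Without the mouse block these missed the threshold (edgeR adjusted p = 0.149, 0.0593 and 0.457), and with plain totals Rpl10 was at -0.00087; DESeq2 put it at -0.11 and did not call it (DESeq2 adjusted p = 0.0709).

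Levels of the paralogs across cell types are given as a description, with no test against the core. Rpl36al, a retrotransposed gene coding for nearly the same protein as Rpl36a, had a mean of 659 plain CPM in T cells, 664 in B cells, 536 in PT, 450 in endothelial cells and 436 in fibroblasts and mural cells. Rpl36a was at 941, 827, 390, 571 and 491 in the same order. Rpl36al was below PT in 9 of 9 mice in endothelial cells (log2 fold change -0.62, edgeR adjusted p = 7.9e-09, and -0.25 with plain totals) and in fibroblasts and mural cells (-0.64, edgeR adjusted p = 3.1e-07, and -0.30 with plain totals), where Rpl36a was at 0.17 and -0.03. Reads that match both copies could have been split between them. Rpl22l1 had its highest levels in T cells, at a mean of 303 plain CPM, and in fibroblasts and mural cells, at 296 with a range of 210 to 536, against 135 in PT cells. Its log2 fold change over PT was 1.11 in T cells and 0.76 in fibroblasts and mural cells (edgeR adjusted p = 1.7e-06, and 1.103 with plain totals), the highest of any member there. Rpl7l1 was the lowest or next to lowest of the well measured members against PT in DCT, LOH, endothelial, CD-PC, macrophage, cycling, T and B cells, and at -0.23 in T cells (edgeR adjusted p = 0.20) it missed the threshold.

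Rpl3l was measured with few UMIs outside the tubule. In DCT cells it was at 7.52, 8.43 and 8.50 plain CPM in Control, 8.03, 12.1 and 7.51 in AKI-CKD and 7.95, 6.62 and 8.47 in AKI-CKD + EGT mice, from 301 UMIs in all. In PT cells it ran from 2.92 to 6.53, so that no PT value reached the lowest DCT value. The log2 fold change was 0.62 ± 0.16 (SE; edgeR adjusted p = 0.0031, higher in 9 of 9 mice), and 0.74 with plain totals. In endothelial cells it was at -1.36 (edgeR adjusted p = 3.1e-05) from 32 UMIs, and B cells and fibroblasts and mural cells had 5 and 8 UMIs, which allow no statement.

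**Figure D5:**
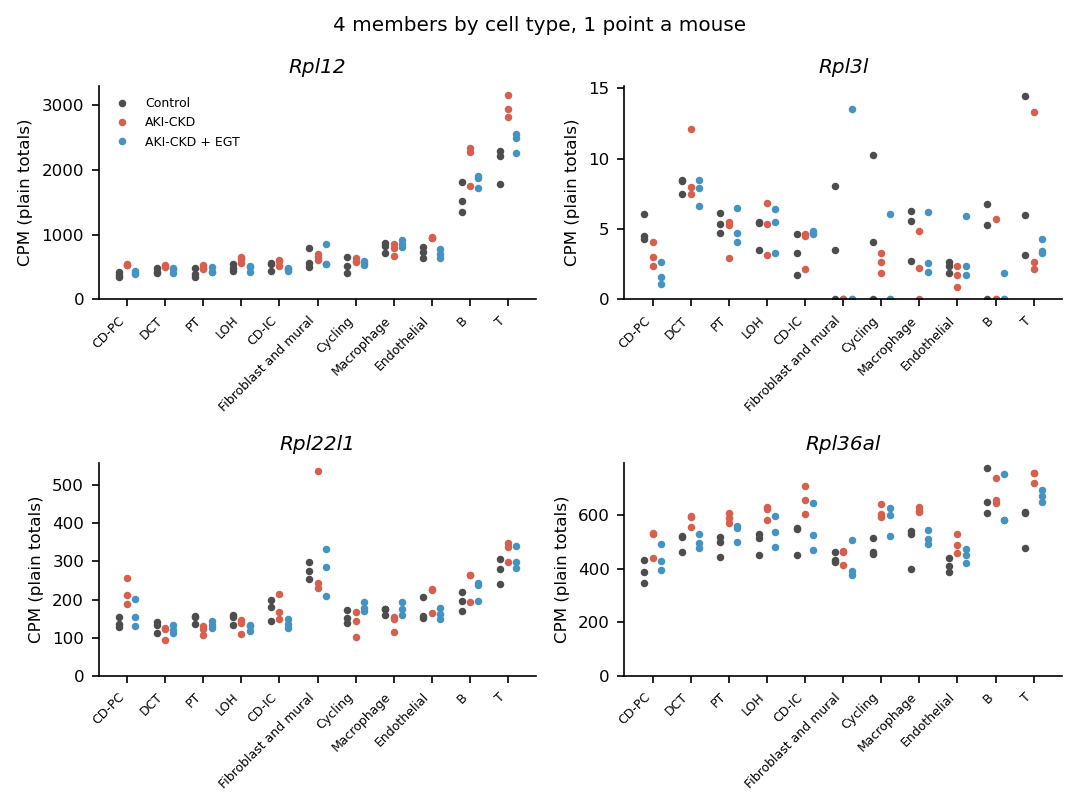
CPM on plain totals (y axis) of Rpl12, Rpl3l, Rpl22l1 and Rpl36al in each cell type (x axis), with 1 point for each mouse coloured by group. Rpl12 reaches 3156 in T cells against at most 529 in PT cells, Rpl3l is highest in DCT cells among the well counted types, and Rpl22l1 is high in T cells and in fibroblasts and mural cells.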

How the data were processed

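The authors deposited for each of the 9 mice a matrix in sparse form with the raw count of UMIs for each gene symbol and cell, made with the PISA tool per the file headers and, per the labels, with the genome build GRCm39. Libraries were poly(A) captured, so counts come from 1 end of a transcript and are not compared in level between genes. Counts were neither normalized nor pooled. Cells were filtered, normalized, corrected for the library with Harmony and clustered without ribosomal protein or mitochondrially encoded genes, and no doublet caller was used. Counts were summed per mouse and population and tested with edgeR 4.0.16 in R 4.3.3 (TMM, filter on low counts, all 9 mice in the fit, or each cell type against PT with the mouse as a block), with DESeq2 1.42.0 as an alternative. Benjamini-Hochberg values run over all genes tested. Shares were computed in Python 3.11.15. The members and lists were chosen with earlier results of these data known, so no p is given for a sum over members, and 3 mice against 3 could not go below an exact p of 0.1. Named members follow a rule: fixed stalk, core, exit tunnel and paralog genes, the extremes per comparison with average log2 CPM reaching 4, and called members. In a simulation where 200 genes differed by a fold of 2, edgeR recovered 38.5% for AKI-CKD against Control in all cells (19824 genes), 71.5% in T cells (4190 genes) and 96.5% for T against PT (15451 genes). All genes shared 1 dispersion, and the changed genes were picked above a minimum mean count. For T against PT the dispersion was set by hand, PT was given the T cell profile and no mouse effect was built in. That value therefore does not estimate the recovery in the real contrast. A single member enters the counts and medians but is not reported by name or drawn in the figures that name genes.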

Additional observations from a re-analysis of the deposited data

How the results depend on the processing

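The share of UMIs between groups moved by less than 1 SD between replicates under all 159 alternatives. The same held for the 156 fits without 1 mouse, but this was fixed in advance. With so few mice a group, leaving out 1 cannot move the difference by 1 SD. Pairing same-numbered mice, where it was an alternative, leaves a difference of group means unchanged by construction. Neither of these therefore tests how stable the share is. Under the medians over genes of log2 CPM in place of sums, the log2 ratio of large to small subunit differed in all cells by -0.019 for AKI-CKD minus Control and by 0.089 for AKI-CKD + EGT minus AKI-CKD, and in PT by -0.035 for AKI-CKD and 0.043 for AKI-CKD + EGT, each minus Control. As a median over cells, the share exceeded that of PT by 0.67 percentage points in cycling cells and by 6.79 in B cells.

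Called members depended on the tool. DESeq2 called, for AKI-CKD minus Control and then for the effect of EGT in AKI-CKD, 1 and 7 in all cells, 4 and 9 in PT, 2 and 6 in DCT, 1 and 4 in LOH, 2 and 20 in endothelial and 24 and 4 in CD-PC cells, and in the latter comparison 1 in macrophages, 6 in CD-IC and 1 in T cells. Its share of all genes called in the same direction ran from 0.0856% to 4.93% over these fits and was below the share of members in each. Without a filter on low counts edgeR called 1 in DCT, 2 in LOH, 5 in endothelial cells, 1 in macrophages and 1 in cycling cells for AKI-CKD + EGT, and 1 in CD-PC and 1 in cycling cells for AKI-CKD. Without the 6% of cells with the most UMIs it called 1 in LOH and 5 in CD-IC cells, and with only the 6 mice compared 1 in CD-IC cells. The share of all genes called in the same direction was 0.087% to 0.648% without the filter, 0.17% and 2.53% without those cells and 0.766% with the 6 mice. Whether the same replicate number marks related mice is not known. Correlations of deviations from the group means ran from -0.49 to 0.43 for same-numbered mice in all cells, and from -0.47 to 0.50 for the other pairs. With 3 mice a group, the deviations within a group are tied to each other, so these values cannot decide it. With the replicate block the CD-IC count of 2 became 0, and no other count of called members between groups changed beyond the limit. Leaving out 1 mouse gave 0 to 19 in CD-IC, 0 to 2 in DCT, 0 to 1 in LOH and 0 to 3 in CD-PC cells for AKI-CKD + EGT, and 0 to 2 in CD-PC cells for AKI-CKD. The highest of these counts came without AKI-CKD + EGT mouse 1, where edgeR called 4.08%, 1.16%, 0.425% and 1.09% of all genes, and for AKI-CKD without Control mouse 2 (0.134%).

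Plain totals were chosen after seeing the data. They gave a median member log2 fold change of -0.22 (all cells) and -0.34 (endothelial) for AKI-CKD + EGT, and turned single members there to above 0: Rpl22l1 0.12, Rpl27a 0.024 and Rpl3l 0.11 in all cells, and 0.15, 0.017 and 0.15 in PT. Without Harmony the DCT median for AKI-CKD was 0.33. Leaving out 1 mouse, Rpl3l for AKI-CKD ran from -0.31 to 0.087 in all cells and from -0.30 to 0.096 in PT, above 0 only without AKI-CKD mouse 2. For AKI-CKD + EGT, Rpl22l1 ran from -0.22 to 0.021 in all cells and from -0.16 to 0.063 in PT and Rpl27a from -0.47 to 0.0043 in all cells, above 0 only without AKI-CKD + EGT mouse 3, and Rpl3l from -0.39 to 0.0082 in all cells, above 0 only without AKI-CKD mouse 3, and from -0.34 to 0.065 in PT, above 0 without AKI-CKD mouse 1 or 3.

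Against PT, plain totals gave 10 higher and 10 lower in DCT (median -0.014), 37 and 2 in LOH (0.16), 47 and 2 in endothelial (0.48), 3 and 24 in CD-PC (-0.14, with Rpl31 at 0.32 and Rpl22l1 at 0.34), 19 and 1 in CD-IC (0.11), 45 and 0 in cycling cells (0.22), and 26 and 1 in fibroblasts and mural cells (0.20). Without the mouse block there were 1 higher and 7 lower in DCT, 1 and 1 in LOH, 7 and 4 in endothelial, 0 and 0 in cycling cells, and 11 lower in fibroblasts and mural cells. Without a filter there were 1 higher in DCT (median -0.24, Rpl21 -0.068, Rpl31 -0.011), 3 in LOH (-0.077), 4 higher and 19 lower in endothelial (-0.12), 1 lower in macrophages (0.32, Rpl36al -0.094), 2 lower in cycling and 1 lower in T cells (0.94), and medians of -0.86 in CD-PC and 0.81 in B cells. DESeq2 gave 1 higher in DCT, 25 higher and 0 lower in cycling (0.12), a median of 1.096 in B cells, and 5 higher in fibroblasts and mural cells. Library sizes without mitochondrially encoded, ribosomal and Malat1 UMIs gave 1 higher in DCT, 2 lower in cycling cells and 27 lower in fibroblasts and mural cells (median -0.26). Leaving out 1 mouse gave 1 to 2 higher in DCT, 5 to 9 higher in LOH (median -0.029 to 0.0044), 7 to 12 higher and 1 to 5 lower in cycling and 0 to 1 lower in T cells, and Rpl36al in macrophages ran from -0.011 to 0.073, below 0 when mouse 1 of AKI-CKD or mouse 3 of Control was absent. In the edgeR fits without the block, without the filter or with those other library sizes, the same call was made for 5.39% to 35.9% of all genes, and by DESeq2 for 4.41% to 31.5%. The causes were not tested, beyond the construction of each alternative.

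On simulated data with 3 mice a group, a fold of 2 was found for 38.5% of the genes it was given to in all kept cells and for 71.5% in T cells. Smaller folds, such as those of most members, were not simulated.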
